A study of Homo sapiens with 1 sample.

Results

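The miR-15/16 family, with its relatives miR-195, miR-424, miR-497 and miR-503, was described on 1 microRNA (miRNA) microarray of DLD-1 cells. DLD-1 is an established line from a human colorectal carcinoma, and the cells had received a negative control siRNA (si-NC) by transfection. The members were picked by their miRNA names from a list drawn up with earlier results of these data known, and all 10 were on the array among 2549 miRNAs: hsa-miR-15a-5p, hsa-miR-15a-3p, hsa-miR-15b-5p, hsa-miR-15b-3p, hsa-miR-16-5p, hsa-miR-16-2-3p, hsa-miR-195-5p, hsa-miR-424-5p, hsa-miR-497-5p and hsa-miR-503-5p. The study examined circLONP2, a circular RNA of the LONP2 gene, in the metastasis of colorectal carcinoma. As part of this it measured miRNA levels on knockdown and on overexpression of circLONP2. Only the si-NC array was used, and neither the knockdown nor the overexpression was analysed here. No groups were therefore compared, and no p-value is given. Errors are technical, from replicate spots or from the scanner software, and say nothing about the spread between cultures.

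A miRNA hairpin is cut into a duplex, and the strand from its 5p or its 3p arm is loaded into an Argonaute protein, which it guides to messenger RNAs mainly through the seed, the bases near its 5′ end. The 5p strands of this family hold closely related seeds, and their known targets include messages for BCL2, an inhibitor of apoptosis, and for the G1 cyclins CCND1 and CCNE1. The miR-15a/16-1 locus is known for its deletion in chronic lymphocytic leukaemia, where it acts as a tumour suppressor.

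The mature sequences are shown because the family is defined by them. All 10 members matched the RefSeq table (GRCh38.p14), and the capitals mark the seed, bases 2 to 8 counted from the 5′ end.
hsa-miR-15a-5p: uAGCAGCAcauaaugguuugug
hsa-miR-15b-5p: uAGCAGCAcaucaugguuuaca
hsa-miR-16-5p: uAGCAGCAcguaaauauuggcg
hsa-miR-195-5p: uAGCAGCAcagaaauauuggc
hsa-miR-497-5p: cAGCAGCAcacugugguuugu
hsa-miR-424-5p: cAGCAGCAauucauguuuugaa
hsa-miR-503-5p: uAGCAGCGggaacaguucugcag
hsa-miR-15a-3p: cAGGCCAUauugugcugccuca
hsa-miR-15b-3p: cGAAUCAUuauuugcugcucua
hsa-miR-16-2-3p: cCAAUAUUacugugcugcuuua
Of the 7 5p members, 6 held the same seed, and hsa-miR-503-5p differed in its last base. The 3 3p members had a seed each. Outside the list of 10, hsa-miR-6838-5p (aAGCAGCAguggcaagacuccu) also had the seed of the 6, and hsa-miR-195-3p (cCAAUAUUggcugugcugcucc) had that of hsa-miR-16-2-3p. No other miRNA of the array had the seed of a member.

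Beyond the seed the 5p members diverged. Set base to base from the 5′ end, the 21 pairs of 5p members differed at 2 to 11 bases. The closest pair was hsa-miR-16-5p and hsa-miR-195-5p, with 19 of 21 bases the same and the substitutions G10A and U11G, positions being counted from 1 at the 5′ end of the first-named miRNA. hsa-miR-15a-5p and hsa-miR-15b-5p shared 18 of 22 bases (A12C, G20A, U21C and G22A), and hsa-miR-15a-5p and hsa-miR-497-5p shared 17 of 21 (U1C, U11C, A12U and A13G). Whether such close sequences bind to each other's probes was not tested.

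The members come from 8 hairpins in 4 pairs. The hairpins of the miR-15a/16-1 and miR-15b/16-2 loci are shown with both mature arms in capitals, since the balance of their arms is described below; coordinates are those of RefSeq on GRCh38.p14, and the array file holds none.
MIR15A, chr13:50049119-50049201, minus strand: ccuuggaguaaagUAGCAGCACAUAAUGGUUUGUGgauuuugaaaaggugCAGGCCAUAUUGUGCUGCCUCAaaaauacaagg
MIR16-1, chr13:50048973-50049061, minus strand: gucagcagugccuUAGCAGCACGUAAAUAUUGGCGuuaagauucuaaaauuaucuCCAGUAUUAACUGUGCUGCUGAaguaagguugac
MIR15B, chr3:160404588-160404685, plus strand: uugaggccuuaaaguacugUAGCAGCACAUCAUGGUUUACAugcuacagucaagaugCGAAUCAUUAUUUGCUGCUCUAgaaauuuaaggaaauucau
MIR16-2, chr3:160404745-160404825, plus strand: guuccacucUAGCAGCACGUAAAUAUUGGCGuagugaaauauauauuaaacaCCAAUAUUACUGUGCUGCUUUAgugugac
MIR15A and MIR16-1 lay 57 bases apart within the span of DLEU2, a long non-coding RNA gene. MIR15B and MIR16-2 lay 59 bases apart within the spans of SMC4, a condensin subunit, and TRIM59-IFT80. MIR497 (chr17:7017911-7018022) and MIR195 (chr17:7017615-7017701), both on the minus strand, lay 209 bases apart within MIR497HG. MIR424 (chrX:134546614-134546711) and MIR503 (chrX:134546328-134546398), also on the minus strand, lay 215 bases apart, with MIR503 within MIR503HG. The mature hsa-miR-16-5p was present in both miR-16 hairpins, so its signal could not be divided between the chromosomes.

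All 10 members carried the scanner software's detected flag, against 1133 of all 2549 miRNAs, or 44.4%. The measure used for each is the total gene signal, the software's summary of background-subtracted intensity over the probes of a miRNA, in arbitrary units on a scale that is not that of single spots. Each member had 20 spots, spread over 2 to 4 probes, and 181 of the 200 member spots (90.5%) were well above background by the software's flag, against 34.3% of all miRNA spots. No spot was saturated. Of the 1000 negative control spots, the median was 0.0894 and the 99th percentile 16.1. Different probes bind with different strength, so an order of signals is one of array signal and not of RNA amount. The 9 miRNAs listed as markers of colon epithelium were all detected (52.2 to 9249, sum 30361). Of 7 blood markers 3 were detected (sum 742): hsa-miR-142-3p at 695 ± 50.05, close to hsa-miR-424-5p, hsa-miR-223-3p at 25.4 ± 1.97 and hsa-miR-451a at 21.5 ± 1.67. The undetected ones were hsa-miR-144-3p, hsa-miR-144-5p, hsa-miR-486-5p and hsa-miR-150-5p. Of 8 markers of stroma, vessel and muscle, hsa-miR-126-3p was detected at 123 ± 8.75, and hsa-miR-143-3p, hsa-miR-145-5p, hsa-miR-199a-3p, hsa-miR-199a-5p, hsa-miR-214-3p, hsa-miR-1-3p and hsa-miR-133a-3p were not. The cells were of a cultured line, and where these marker signals came from was not tested.

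**Figure D1:**
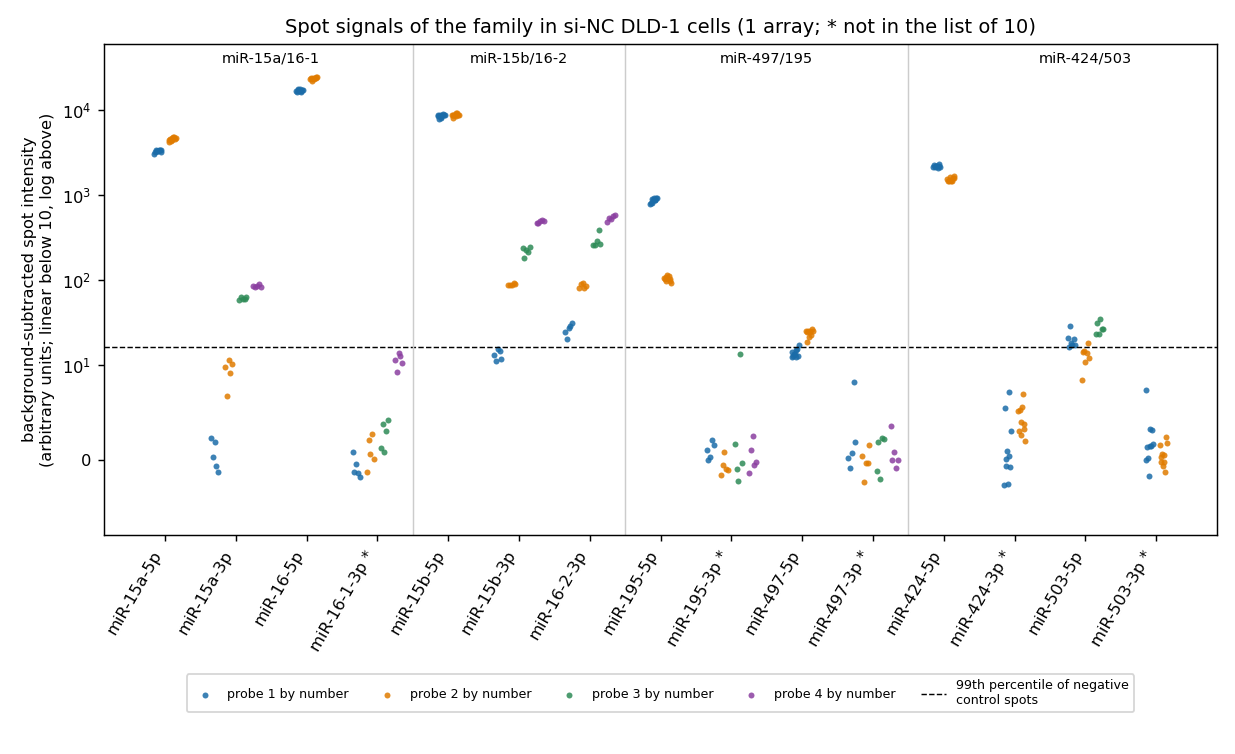
Background-subtracted intensity of all 20 spots of each of the 15 arms of the family's hairpins on the si-NC array, grouped by locus, on an axis that is linear below 10 and logarithmic above; colours are the probes in order of probe number, the dashed line is the 99th percentile of the negative control spots (16.1), and asterisks mark the 5 arms that are not members. hsa-miR-16-5p is drawn at miR-15a/16-1 although both miR-16 hairpins hold it, and its spots (16208.5 to 24464) are above those of every other arm drawn.

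At the miR-15a/16-1 and miR-15b/16-2 loci the 3 5p members were the brightest of the family. The 20 spots of hsa-miR-16-5p ran from 16208.5 over a median of 19869 to 24464. Its total gene signal was 7451 ± 534 (software error), rank 16 of the 1133 detected miRNAs. The spots of hsa-miR-15b-5p ran from 7788 over 8748 to 9144, with a total gene signal of 3162 ± 224 and rank 34. Those of hsa-miR-15a-5p ran from 3087 over 3832 to 4854, with a total gene signal of 1447 ± 104 and rank 54. The spots of these 3 miRNAs did not overlap with each other, and 95.2% or more of the detected miRNAs had a lower signal than each. The 5p signal at miR-15b was thus 2.19 times that at miR-15a, or 1.13 ± 0.15 on the log2 scale (propagated software error).

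The 3p members of these loci were dimmer. Relative to their medians, their spots spanned a wider range, mostly between probes. The spots of hsa-miR-16-2-3p ran from 20.5 over a median of 175 to 587, with a total gene signal of 84.2 ± 5.61 and rank 228. The spots of hsa-miR-15b-3p ran from 11.1 over 137 to 513, with a total gene signal of 74.4 ± 5.02 and rank 240. The range of each covered most of the other's. For hsa-miR-15a-3p, 10 of 20 spots were well above background, and the spots ran from -1.32 over 35.1 to 89.4, with a total gene signal of 14.2 ± 1.05 and rank 543. It was the member nearest the median of the detected miRNAs, 12.5. The total 3p signal at miR-15b was 5.23 times that at miR-15a (2.39 ± 0.14 on the log2 scale). Between the brightest probes the mean spot signals were 491 at miR-15b and 85.01 at miR-15a. Between the dimmest probes above background they were 13.2 and 60.99. This turn in direction rested on the filter, which left out the dimmer probes of hsa-miR-15a-3p (means 0.463 and 9.53). Without it the dimmest means were 13.2 at miR-15b and 0.463 at miR-15a.

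The remaining arm of these loci, hsa-miR-16-1-3p (cCAGUAUUaacugugcugcuga), is not a member and was near background. Its spots ran from -1.80 over 1.66 to 13.98, and 1 of 20 was well above background. The software still flagged it detected, with a total gene signal of 1.06 ± 0.262 and rank 1122 of 1133. The highest of its spots was below the lowest spot of hsa-miR-16-2-3p, its counterpart at miR-15b/16-2.

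The locus of miR-497 and miR-195 gave unequal signals for its 5p members. The spots of hsa-miR-195-5p ran from 92.7 over a median of 452 to 918, with a total gene signal of 178 ± 16.03 and rank 149. The spots of hsa-miR-497-5p ran from 12.4 over 17.9 to 26.8, 16 of 20 well above background, with a total gene signal of 7.05 ± 0.851 and rank 728. No spot of the dimmer miRNA reached the lowest spot of the brighter one. The 3p arms hsa-miR-195-3p and hsa-miR-497-3p were not detected, with 1 and 0 of 20 spots well above background.

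The locus of miR-424 and miR-503 on chromosome X showed the same unevenness. The spots of hsa-miR-424-5p ran from 1461.5 over a median of 1882 to 2308, with a total gene signal of 683 ± 49.03 and rank 75. The spots of hsa-miR-503-5p ran from 8.42 over 18.2 to 35.2, 17 of 20 well above background, with a total gene signal of 7.10 ± 0.698 and rank 723. The spots did not overlap. The 3p arms hsa-miR-424-3p and hsa-miR-503-3p were not detected, with 0 of 20 spots well above background each. Of the 7 arms listed as neighbours of this locus, 4 were detected: hsa-miR-450a-5p at 134 ± 9.56, hsa-miR-542-3p at 52.7 ± 3.12, hsa-miR-542-5p at 11.2 ± 1.04 and hsa-miR-450b-5p at 8.28 ± 0.647. MIR542 lay 4890 bases from MIR503.

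**Figure D2:**
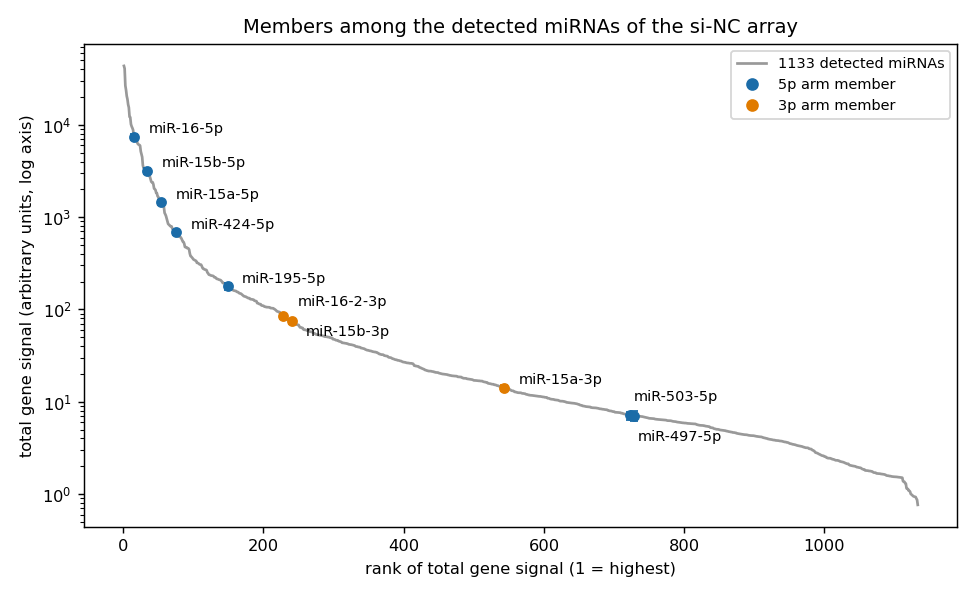
Total gene signal (log axis) of the 1133 detected miRNAs against its rank, with the 5p and 3p members marked; bars are the software's errors and are mostly smaller than the points. The members run from hsa-miR-16-5p at rank 16 to hsa-miR-497-5p at rank 728.

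Ordered by total gene signal, the family ran hsa-miR-16-5p, hsa-miR-15b-5p, hsa-miR-15a-5p, hsa-miR-424-5p, hsa-miR-195-5p, hsa-miR-16-2-3p, hsa-miR-15b-3p, hsa-miR-15a-3p, hsa-miR-503-5p and hsa-miR-497-5p. Of the 9 neighbouring pairs in this order, 7 differed by more than 2 combined errors. hsa-miR-16-2-3p and hsa-miR-15b-3p did not, with a difference of 9.80 against a combined error of 7.53, and neither did hsa-miR-503-5p and hsa-miR-497-5p, with a difference of 0.0545, or 0.0495 combined errors. Of the 7 5p members, 5 were above the median detected miRNA, and hsa-miR-503-5p and hsa-miR-497-5p were below it. hsa-miR-6838-5p, which shares the family seed, was at 7.82 ± 0.876, close to those 2 members. The authors' normalized log2 values put all 10 members in the same order, from 12.59 for hsa-miR-16-5p to 2.84 for hsa-miR-497-5p. Those values come from the same array, and normalization by quantiles keeps the order within an array. The shared order is therefore no separate support. On the log2 scale of the mean spot, relative to the 75th percentile of the spots that belong to detected miRNAs (143), the level was 7.12 ± 0.04 for hsa-miR-16-5p (SD over replicate spots), -2.97 ± 0.13 for hsa-miR-497-5p and 0.46 at the median of the 10.

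Arm balance was taken as log2 of the 5p total gene signal minus log2 of the 3p one. At miR-15a it was 6.67 ± 0.15 (propagated software error), a 5p signal 102 times the 3p signal. At miR-15b it was 5.41 ± 0.14, or 42.5 times. On this measure both loci were therefore on the 5p side by many times the error, the former by more than the latter. With normexp background correction the loci were nearly equal, at 5.45 for miR-15a and 5.42 for miR-15b. Of 810 pairs of arms on the array, 232 had both arms detected, and their median absolute difference was 2.50 (quartiles 1.24 and 4.49), with the 5p arm higher in 125 (53.9%). A larger absolute difference was found in 33 of these pairs (14.2%) for miR-15a and in 45 (19.4%) for miR-15b. The difference rested on which probes were read. With the brightest probe of each arm it was 5.75 at miR-15a and 4.16 at miR-15b. With the dimmest probe above background it was 5.77 and 9.34, which turned the order of the loci. This turn rested on the filter, which left out the dimmer probes of hsa-miR-15a-3p (means 0.463 and 9.53). It kept the dimmest of hsa-miR-15b-3p, with a mean of 13.2. With the mean log2 spot signal over all probes the difference was 8.03 at miR-15a and 6.35 at miR-15b. The value at miR-15a took in the dimmer probes of hsa-miR-15a-3p, which had 0 spots well above background. It left out 2 of their spots, which were at or below 0, so it rests on signals near background.

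For miR-16 the arms could not be set against each other within 1 locus. hsa-miR-16-5p exceeded hsa-miR-16-2-3p by 6.47 ± 0.14 on the log2 scale, or 88.5-fold, and 34 of the 232 pairs (14.7%) had a larger absolute difference. Both hairpins can give the 5p strand, whereas this 3p strand comes from MIR16-2 alone, so the difference cannot be read as the arm balance of that hairpin. How much each hairpin gave to the 5p signal was not tested. At MIR16-1 the 3p arm was too near background for a ratio.

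**Figure D3:**
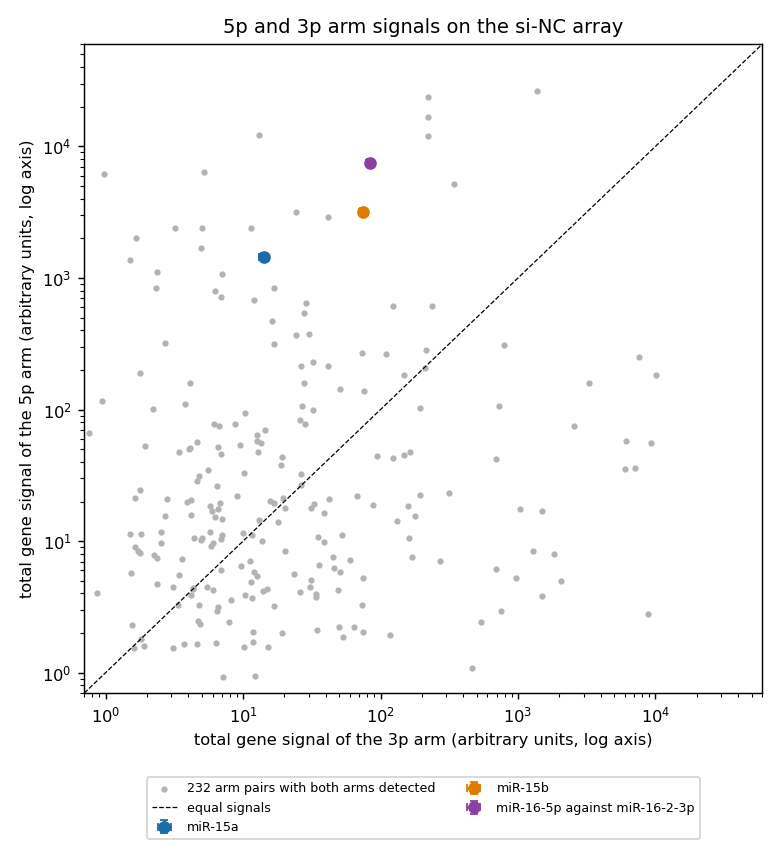
Total gene signal of the 5p arm against that of the 3p arm (log axes) for the 232 pairs of arms with both detected, with miR-15a and miR-15b marked and hsa-miR-16-5p against hsa-miR-16-2-3p added; bars are software errors and the dashed line marks equal signals. The marked points lie 6.67, 5.41 and 6.47 above the line on the log2 scale.

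Probes listed for 1 miRNA can differ in signal, and what lies behind such a gap was not tested. Where 50% or more of the spots of each probe were well above background, 4 of the 10 members had a gap of 1 or more on the log2 scale between the brightest and the dimmest probe, against 154 of 801 detected miRNAs (19.2%). The share depended on the number of probes: 14.3% of 683 miRNAs with 2 such probes, 32.8% of 61 with 3 and 63.2% of 57 with 4. Of the members, 1 of 7 with 2 such probes, 1 of 1 with 3 and 2 of 2 with 4 had such a gap.

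The widest gaps were in the 3p members of miR-15b/16-2. The 4 probes of hsa-miR-15b-3p had mean spot signals of 13.2 ± 1.77, 88.96 ± 2.22, 221 ± 25.1 and 491 ± 19.3 (SD, 5 spots each). Their gap was 5.22 ± 0.09 (SE over spots), or 37.3-fold. Of the 57 detected miRNAs with 4 probes above background, 1 had a larger one. The dimmest of these probes (13.2) was below the 99th percentile of the negative control spots (16.1), so the size of the gap rests on a value near background. With normexp background correction the gap was 2.95. The 4 probes of hsa-miR-16-2-3p had means of 26.6 ± 4.17, 85.5 ± 5.08, 267 ± 13.9 and 542 ± 39.3. Their gap was 4.36 ± 0.12, and 5 of the 57 had a larger one. With normexp it was 2.81.

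For hsa-miR-15a-3p the 4 probes had means of 0.463 ± 1.56, 9.53 ± 1.78, 60.99 ± 2.40 and 85.01 ± 2.61. The dimmer 2 had no spot well above background, and the gap between the other 2 was 0.48 ± 0.03. In all 3 members with 4 probes the mean rose with the probe number, as it did in 72 of 142 detected miRNAs with 4 probes (50.7%). These members are all 3p arms, and of the detected 3p arms with 4 probes it rose in 42 of 70. What part of each miRNA a probe covers is not given in the sources used here.

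Among the 5p members, hsa-miR-195-5p stood out. Its 2 probes had means of 868 ± 49.9 and 104 ± 6.73 (SD, 10 spots each), and no spot of the dimmer reached any of the brighter. The gap was 3.07 ± 0.04, or 8.38-fold, and 7 of the 683 detected miRNAs with 2 probes above background had a larger one.

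For the 4 brightest members the gap was at most 0.50, against a median of 0.32 over the 683 miRNAs with 2 such probes. hsa-miR-15b-5p had probe means of 8549 ± 375 and 8739 ± 108 and a gap of 0.03 ± 0.02, below that median, and the other 3 were above it. The gap was 0.49 ± 0.02 for hsa-miR-16-5p, whose probes had means of 16974 ± 552 and 23763 ± 451. It was 0.46 ± 0.02 for hsa-miR-15a-5p (3326 ± 73.03 and 4583 ± 192) and 0.50 ± 0.03 for hsa-miR-424-5p (2186 ± 67.8 and 1547 ± 78.4).

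Relative to their signal, the spots of the dimmest members were more spread. hsa-miR-503-5p had 3 probes with means of 18.4 ± 1.89, 13.2 ± 3.08 and 27.8 ± 4.69 and a gap of 1.09 ± 0.16, within 1 SE of the threshold of 1. hsa-miR-497-5p had means of 13.95 ± 1.51 and 24.6 ± 1.48 and a gap of 0.82 ± 0.06. The CV over replicate spots was 3.18% at the median of the 8 member probes with a mean of 1000 or more and 13.4% at that of the 7 with a mean under 30. Over all 25 member probes above background it was 5.20%, against 8.74% over the 1943 such probes of the array. These sets of probes were not matched for signal.

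**Figure D4:**
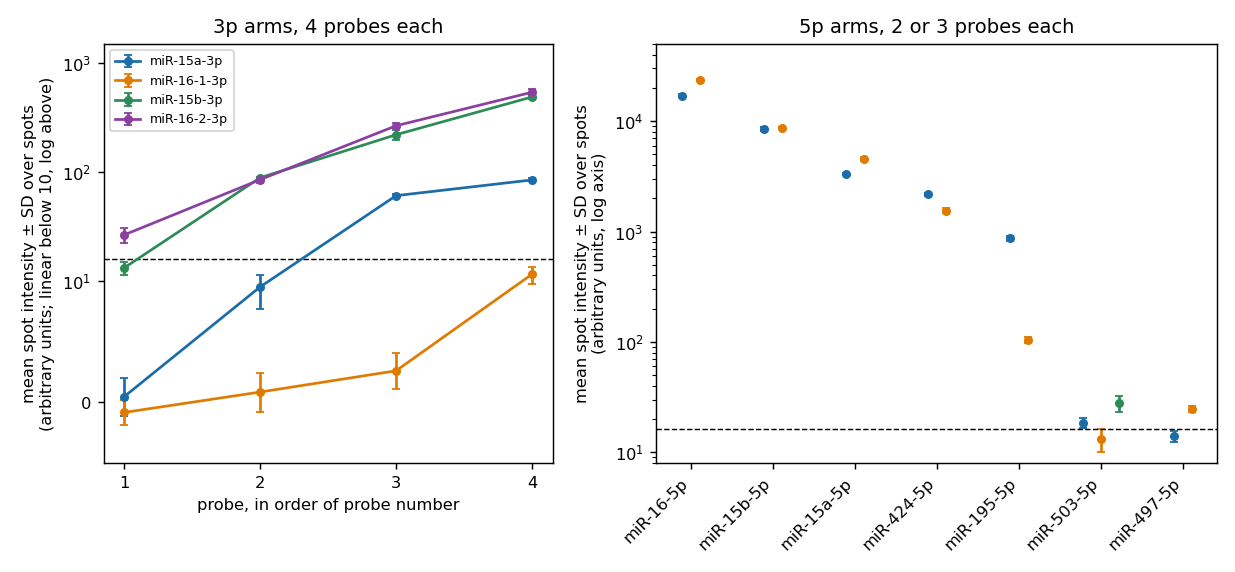
Mean spot intensity of each probe with its SD over replicate spots: left, the 4 probes of hsa-miR-15a-3p, hsa-miR-16-1-3p, hsa-miR-15b-3p and hsa-miR-16-2-3p in order of probe number (axis linear below 10 and logarithmic above); right, the 2 or 3 probes of the 5p members (log axis); the dashed line is the 99th percentile of the negative control spots. The 3p means rise with the probe number, and among the 5p members the probes of hsa-miR-195-5p lie farthest apart (868 and 104).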

How the data were processed

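MiRNAs of 1 si-NC sample of DLD-1 cells were measured with 1 Agilent array of a single colour. The labels name Cyanine 3-pCp as the label of the RNA, whereas the study's methods describe labelled cDNA, a difference not settled here. Per the file headers, intensity of each spot came from Feature Extraction 11.0.1.1, and the array's design rests on hg19. The deposited scanner file gives background-subtracted intensity, each miRNA's total gene signal and error, and the software's flags (detected, outlier, well above background), with no normalization between arrays. A second deposited table holds log2 values that the authors normalized by quantiles in GeneSpring, with a floor that is not stated.

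Detection was the software's flag. Undetected miRNAs carry a placeholder signal of 0.1. Control spots and outlier spots (8 of the 200 member spots) were left out of levels and probe means. Spots at or below 0 have no log2 and were left out of levels (2 of hsa-miR-15a-3p). Probes entered a gap when 50% or more of their spots were well above background, and the gap was the difference of mean log2 spot signals. A difference in the order was called beyond 2 combined errors. Python 3.11.15, numpy 2.4.6, pandas 2.3.3 and matplotlib 3.10.9 were used. Normexp ran in limma 3.58.1 under R 4.3.3 (offset 50, on the median spot signal). The calculations were tested on simulated data. Alternatives were other detection rules, references, background corrections, probe choices and the deposited values. Named miRNAs were the 10 members, the other arms of their hairpins, miRNAs sharing a member's seed, and neighbours of miR-424 and miR-503; with 1 array no likeness of patterns can be computed. The members and lists were chosen with earlier results of these data known. Precision is limited by there being 1 array, and signal over background stands for depth.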

Additional observations from a re-analysis of the deposited data

How the results depend on the processing

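All 10 members stayed detected under every rule tried except the one asking every probe to be above background, which left 9 and dropped hsa-miR-15a-3p; over all miRNAs these rules called 749 to 1133. The median level of the members moved from 0.46 to 2.90 relative to all miRNA spots, to 1.15 with the deposited values and to 1.07 over members with every probe above background. The arm difference at miR-15a moved from 6.67 to 8.03 (mean log2 spot signal), 5.75 (brightest probes), 5.77 (dimmest probes above background), 5.45 (normexp) and 6.25 (deposited values). At miR-15b it moved from 5.41 to 6.35, 4.16, 9.34 and 5.00 under the same settings other than normexp, and hsa-miR-16-5p minus hsa-miR-16-2-3p moved from 6.47 to 7.23, 5.46, 9.33 and 6.14. Normexp gave 5.42 and 6.53 for these. The count of members with a probe gap of 1 or more ran from 3 to 5. hsa-miR-15a-3p joined it at 6.39 with no filter on dim probes, and hsa-miR-503-5p left it at 0.26 with normexp and 0.95 with the median spot. Of 40 alternative levels of single members, 12 moved by less than the SD over spots and 28 by more. Relative to all miRNA spots, with normexp and with the deposited values, the level of hsa-miR-15b-3p moved from -0.43 to 2.01, 0.00052 and 0.46 and that of hsa-miR-16-2-3p from -0.14 to 2.30, 0.10 and 0.62, to the other side of the reference. For levels relative to all miRNA spots, the reference was 26.3 in place of 143, which raised every level by the same amount. The causes of the other moves were not tested. No paired analysis was possible because there is 1 sample. Low signal limits hsa-miR-15a-3p, with 10 of 20 spots well above background, hsa-miR-497-5p, with 16, and hsa-miR-503-5p, with 17.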
